A study of Homo sapiens with 6 samples.

Results

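The 10 genes described here encode histone deacetylases and acetyltransferase cofactors, the enzymes that remove acetyl groups from histones and add them, and they were chosen as known or possible partners of the zinc finger transcription factor ZNF148. They are the acetyltransferases EP300 and CREBBP, the class I deacetylases HDAC1, HDAC2 and HDAC3, the class IIa deacetylases HDAC4, HDAC5, HDAC7 and HDAC9, and the sirtuin SIRT1. A row of the deposited expression table belonged to a gene when one of the comma-separated symbols in its identifier was that gene's. This rule found 12 rows for the 10 genes among 24108 rows in all, since HDAC2 and HDAC5 have 2 rows each and EP300 shares its row with the microRNA gene MIR1281. The table does not say what sets the 2 rows of a gene apart, so the row with the higher mean stands for the gene and the other is given as its second row.

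Total RNA was sequenced from MDA-MB-231, an established human line of the basal subtype of breast cancer. The line was infected for 48 h with lentivirus carrying an LKO hairpin against luciferase (shControl, 3 samples) or a hairpin against ZNF148 (shZnf148, 3 samples), and both groups were then selected for 24 h in 0.5 µg/ml puromycin. One hairpin was used for the knockdown, so the reduction of ZNF148 and any other action of that hairpin cannot be told apart. Nothing in the labels says that the 3 samples of a group came from separate cultures, and p-values therefore measure the spread between these samples, which may be technical.

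Acetylation of histone tails loosens chromatin and is read by bromodomain proteins, whereas its removal accompanies repression. EP300 and CREBBP are paralogous coactivators that are brought to enhancers and promoters by sequence-specific factors. HDAC1 and HDAC2 work inside the NuRD, SIN3 and CoREST complexes, HDAC3 works inside the NCoR and SMRT complex, and the class IIa enzymes have little activity of their own and repress MEF2 factors while moving between nucleus and cytoplasm. ZNF148, also called ZBP-89, binds GC-rich promoter elements and has been described together with p300 at CDKN1A, the gene of the cell cycle inhibitor p21, and with HDAC1 at the vimentin gene VIM.

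The 21-base target of the knockdown hairpin is printed because it defines the perturbation. The capitals mark the word that pairs with bases 2 to 8 of the hairpin's guide strand.
shZNF148 target: cccttggtgaatgTAAATGAt
All 21 bases occur in the canonical ZNF148 transcript of GENCODE, at bases 2765 to 2785 within the coding sequence. In the canonical transcripts of the 10 genes the longest run shared with the target was 9 bases, in EP300 and in HDAC2, and the word in capitals occurred at 1 site in the 3′ UTR of HDAC2 and at 0 sites in the 3′ UTRs of the other 9 genes. The HDAC2 run lies at bases 9687 to 9695 of the transcript, in the 3′ UTR, and is shown in capitals with its flanks.
HDAC2 3′ UTR window: gctttgagatAATGTAAATatacatgggaa

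ZNF148 itself was listed at 3.72, 4.36 and 4.30 FPKM in the shControl samples and at 0.914, 0.282 and 0.834 FPKM in the shZnf148 samples. FPKM is a fragment count divided by transcript length and by the size of the library, so levels of different genes may be set side by side. The 2 groups did not overlap, and the mean fell to 16.4% of the shControl mean. The log2 fold change of FPKM + 1, the scale of every fold change below, was -1.63 (SE 0.18, adjusted p = 0.00990, limma), although without shControl replicate 1 or 3 its adjusted p was 0.0673 or 0.0653.

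The samples carried the marker genes of the line. Summed FPKM of VIM, CD44, AXL, MSN and CAV1 was 3103 to 3225 in shControl and 2595 to 2682 in shZnf148, with all 5 genes lower on average and CD44 and AXL passing the test. Of 9 luminal and epithelial markers, the estrogen receptor gene ESR1 was listed at 0 in every sample and PGR, FOXA1 and CDH1 had means below 0.5 FPKM in both groups, whereas KRT8 (157.5 and 173.7), KRT18 (161.6 and 125.3), EPCAM (10.6 and 9.04) and GATA3 (8.22 and 8.71) were present at these mean FPKM in shControl and shZnf148. KRT18 passed as lower (adjusted p = 0.0286). The ERBB2 row, joined with MIR4728, was at 126.3 and 125.0 FPKM in replicate 2 of shControl and shZnf148 and between 20.1 and 24.8 FPKM in the other 4 samples. The 9 markers summed to 363.7 to 449.1 FPKM in shControl and 322.8 to 453.8 FPKM in shZnf148. The immune cell markers PTPRC, CD3E and CD14 summed to at most 2.02 FPKM. Total FPKM per sample was 497730 to 507312 in shControl and lower in all shZnf148 samples, at 469594 to 488173. The depth relative to shControl replicate 1, read from the steps between low values, was 0.806 in shZnf148 replicate 3 and between 1.05 and 1.13 in the other samples. It is the most common ratio of low values and a rough estimate. In shZnf148 replicate 1 that ratio was shared by 195 of 2533 rows, beside 173 for the next most common. The part of the lower mesenchymal sum, the summed FPKM or the depth in the differences below was not tested.

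Of the 10 genes, 2 fell on ZNF148 knockdown, HDAC7 and HDAC9, and 0 rose at an adjusted p under 0.05. The 2 of 10 genes stand beside 1600 of 11777 tested rows, or 13.6%, that passed in either direction, and beside 8.13% that passed as lower and 5.46% that passed as higher. All 12 rows averaged 1 FPKM or more, the limit for testing, and their lowest single value was 2.17 FPKM. None of the 10 changed more than 1.5-fold while passing, against 5.49% of tested rows (1.83% higher and 3.66% lower). At an unadjusted p under 0.05 there were 5 genes, HDAC4, HDAC7, HDAC9, EP300 and CREBBP. This level was common, since at least 3770 of the 11777 tested rows reached it. In the same 5 genes the groups did not overlap, with 3 higher and 2 lower in shZnf148, against 41.0% of tested rows (20.0% higher and 21.0% lower). The median log2 fold change of the 10 genes was 0.06, beside 0.01 over all tested rows, and the median absolute log2 fold change was 0.21 beside 0.19.

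**Figure D1:**
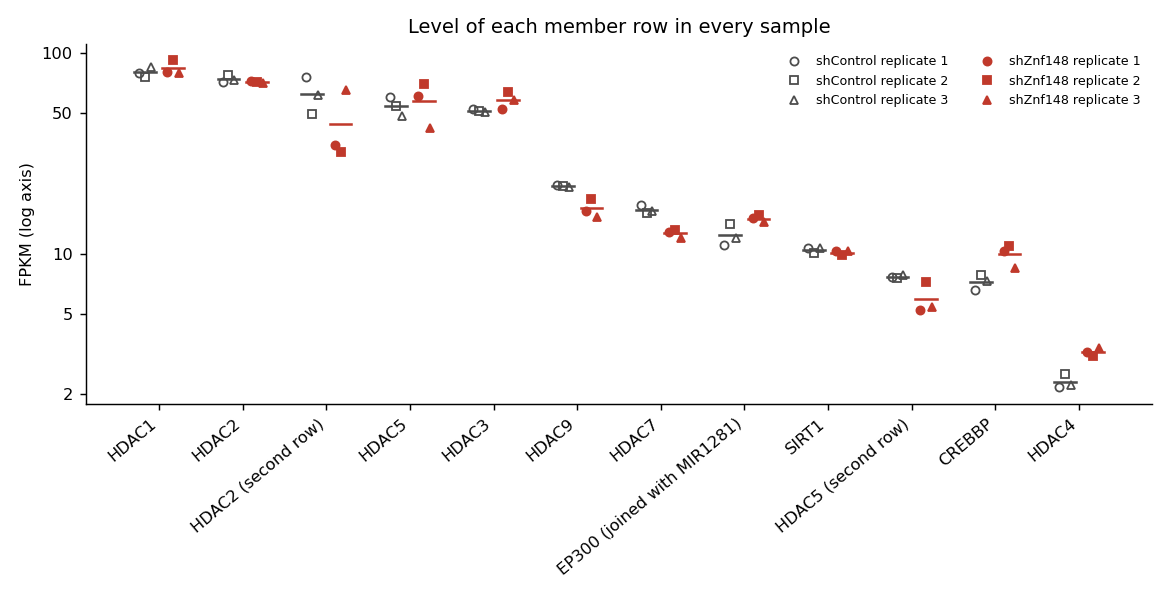
Level of each of the 12 rows in every sample, in FPKM on a log axis, with shControl in open grey and shZnf148 in filled red symbols, symbol shape for the replicate and a line at each group mean. HDAC7, HDAC9 and the second HDAC5 row lie lower and HDAC4, CREBBP and EP300 lie higher in all shZnf148 samples than in any shControl sample.

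The 10 genes spanned a wide range of levels in shControl. By the row that stands for each gene, HDAC1 was the highest at 79.9 ± 4.33 FPKM (SD, n = 3), followed by HDAC2, HDAC5, HDAC3, HDAC9, HDAC7, EP300, SIRT1, CREBBP and HDAC4, the last at 2.31 ± 0.196 FPKM. With its 2 rows added, HDAC2 was at 136.1 ± 10.4 FPKM and would stand above HDAC1, while HDAC5 was at 62.1 ± 5.85 FPKM and kept its place above HDAC3. HDAC1 lay above 91.2% of tested rows and HDAC4 above 13.2%. Neighbours in this order whose sample ranges overlapped were HDAC1 with HDAC2 and HDAC5 with HDAC3, and the other neighbours did not overlap. In shZnf148, by the same single rows, HDAC3 stood above HDAC5 and EP300 above HDAC7. The first of these exchanges was within overlapping ranges in both groups, while EP300 (14.3 to 15.6 FPKM) and HDAC7 (12.0 to 13.2 FPKM) were apart.

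EP300 encodes p300, the acetyltransferase reported as a coactivator with ZNF148. Its row was listed at 11.1, 14.1 and 11.9 FPKM in shControl and at 15.0, 15.6 and 14.3 FPKM in shZnf148. All 3 shZnf148 values were above the shControl values, shControl replicate 2 lying close below them. With a log2 fold change of 0.26 (SE 0.10, 95% CI 0.03 to 0.50), it did not pass (adjusted p = 0.115, limma).

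CREBBP encodes CBP, the paralog of p300. It was listed at 6.62, 7.80 and 7.36 FPKM in shControl and at 10.4, 11.0 and 8.54 FPKM in shZnf148. The groups did not overlap, and shZnf148 replicate 3 was the lowest of its group. The mean was 1.37 times that of shControl, with a log2 fold change of 0.40 (SE 0.11, 95% CI 0.14 to 0.67) and an adjusted p of 0.0581, short of the threshold. When samples were scaled to the same summed FPKM the value was 0.49 (adjusted p = 0.0356), and without shZnf148 replicate 3 it was 0.50 (adjusted p = 0.0444). The adjusted p of CREBBP was 0.0881 with no filter on low values, 0.0919 with replicate number as a block and 0.181 without shControl replicate 1. The ratio of CREBBP to EP300 within a sample was 0.589 ± 0.0314 in shControl and 0.664 ± 0.0599 in shZnf148, with overlapping ranges (exact two-sided permutation p = 0.3, n = 3 per group, adjusted p = 0.45 over the 6 ratios computed). These 6 include the ratios among HDAC4, HDAC7 and HDAC9 that are given below only as a description.

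The EP300 row also carries the short microRNA miR-1281, whose RefSeq coordinates on GRCh38.p14 are chr22:41092545-41092561 on the plus strand. Its mature sequence is shown with the seed, bases 2 to 8, in capitals.
hsa-miR-1281: uCGCCUCCuccucuccc
These 17 bases lie inside the 250-base window before the RefSeq start of EP300, which is printed because EP300 and CREBBP were both higher in all 3 knockdown samples. Of the 2 windows of CREBBP the one with a match is shown, and the other held 0 matches. The capitals mark the word CCCTCCC on either strand, a run of cytosines of the kind bound by the ZNF148 family, and are a match of letters only.
EP300 promoter, GRCh38.p14 chr22:41092342-41092591, plus strand: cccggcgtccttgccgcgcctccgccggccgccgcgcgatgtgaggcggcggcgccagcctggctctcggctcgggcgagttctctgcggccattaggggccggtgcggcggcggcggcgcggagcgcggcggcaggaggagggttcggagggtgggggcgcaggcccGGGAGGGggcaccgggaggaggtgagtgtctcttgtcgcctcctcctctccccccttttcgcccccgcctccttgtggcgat
CREBBP promoter, GRCh38.p14 chr16:3880714-3880963, minus strand: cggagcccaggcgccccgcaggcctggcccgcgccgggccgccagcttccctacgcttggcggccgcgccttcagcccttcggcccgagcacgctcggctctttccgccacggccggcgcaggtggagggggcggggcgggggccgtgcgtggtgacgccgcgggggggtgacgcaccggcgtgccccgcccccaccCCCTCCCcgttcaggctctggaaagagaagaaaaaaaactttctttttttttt

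The class I deacetylases HDAC1, HDAC2 and HDAC3 were at high levels and none of them passed. HDAC8, a further class I enzyme, is not among the 10 genes and passed as lower, as described below. HDAC1, the catalytic partner of HDAC2 in the NuRD, SIN3 and CoREST complexes, was listed at 79.6, 75.7 and 84.3 FPKM in shControl and at 79.8, 91.5 and 79.0 FPKM in shZnf148. The groups overlapped and only shZnf148 replicate 2 lay above the shControl range. The log2 fold change was 0.06 (SE 0.08, 95% CI -0.13 to 0.25, adjusted p = 0.630) and had the opposite sign, -0.01, without shZnf148 replicate 2.

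HDAC2 was listed at 71.7, 77.4 and 72.9 FPKM in shControl and at 72.4, 71.5 and 70.6 FPKM in shZnf148. The ranges overlapped. The log2 fold change of -0.05 (SE 0.06, 95% CI -0.18 to 0.09, adjusted p = 0.583) was 0.02 under quantile normalization and under scaling to the summed FPKM, and -0.24 (adjusted p = 0.188) when the 2 rows of the gene were added. The second HDAC2 row was far more variable, at 75.5, 49.3 and 61.4 FPKM in shControl and 34.9, 32.2 and 65.1 FPKM in shZnf148. In that row shZnf148 replicate 3 lay within the shControl range and the other two below it, and the log2 fold change was -0.54 (SE 0.28, 95% CI -1.21 to 0.14, adjusted p = 0.229). Without shZnf148 replicate 3 it was -0.85 with an adjusted p of 0.0475, the only 1 of 16 alternatives in which this row passed. Without shZnf148 replicate 1 or 2 it was -0.41 or -0.35 (adjusted p = 0.440 and 0.443).

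HDAC3, the catalytic subunit of the NCoR and SMRT complex, was listed at 52.6, 51.0 and 50.9 FPKM in shControl and at 52.2, 63.5 and 57.9 FPKM in shZnf148. Replicate 1 of shZnf148 fell inside the narrow shControl range and the other two lay above it. Its log2 fold change was 0.16 (SE 0.08, 95% CI -0.03 to 0.36) with an adjusted p of 0.214. The ratio of HDAC1 to HDAC2 was 1.08 ± 0.0921 in shControl and 1.17 ± 0.0976 in shZnf148, and that of HDAC1 to HDAC3 was 1.55 ± 0.0922 and 1.44 ± 0.0832. The exact two-sided permutation p-values were 0.5 and 0.3 (n = 3 per group), or 0.6 and 0.45 when adjusted over the same 6 ratios. The ranges of both ratios overlapped.

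Both calls were in class IIa. HDAC7, a deacetylase best known for its roles in endothelial cells and thymocytes, was listed at 17.5, 15.9 and 16.4 FPKM in shControl and at 12.8, 13.2 and 12.0 FPKM in shZnf148. All 3 knockdown values were below all control values, and the spread within each group was small. The mean went from 16.6 ± 0.836 to 12.7 ± 0.571 FPKM, or 0.763 times the shControl mean. Its log2 fold change was -0.36 (SE 0.07, 95% CI -0.54 to -0.19, adjusted p = 0.0280, limma). The exact two-sided permutation p was 0.1, the smallest that 3 against 3 samples can give. In bulk RNA, fewer cells with the transcript and less transcript per cell cannot be told apart.

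HDAC9, which like HDAC7 binds MEF2 factors, was listed at 22.0, 21.8 and 21.5 FPKM in shControl and at 16.4, 18.8 and 15.3 FPKM in shZnf148. The control samples were nearly alike and every knockdown sample was below them, shZnf148 replicate 2 being the closest. The mean went from 21.7 ± 0.265 to 16.8 ± 1.78 FPKM, or 0.773 times, with a log2 fold change of -0.36 (SE 0.09, 95% CI -0.56 to -0.15, adjusted p = 0.0418, limma; exact permutation p = 0.1).

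Both calls were lost when any sample other than shZnf148 replicate 2 was left out. Calls over all tested rows also fell, from 1600 to 29, 239 or 22 without shControl replicate 1, 2 or 3. They numbered 339, 1720 and 994 without shZnf148 replicate 1, 2 and 3. Without shControl replicate 1, 2 or 3 the adjusted p of HDAC7 was 0.114, 0.0694 or 0.103, and without shZnf148 replicate 1 or 3 it was 0.0739 or 0.0594. For HDAC9 the corresponding values were 0.143, 0.104 and 0.129, then 0.108 and 0.0800. Leaving out shZnf148 replicate 2 kept both calls (0.0270 for HDAC7 and 0.0151 for HDAC9). The size of the change moved less, between -0.39 and -0.33 for HDAC7 and between -0.44 and -0.30 for HDAC9.

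HDAC4, the class IIa enzyme studied most in muscle and bone, had the lowest level, at 2.17, 2.53 and 2.22 FPKM in shControl and 3.27, 3.10 and 3.39 FPKM in shZnf148. Every knockdown value was above every control value. The mean was 1.41 times that of shControl, the log2 fold change was 0.36 (SE 0.10, 95% CI 0.13 to 0.60), and the adjusted p of 0.0568 did not pass. It was 0.0499 with a pseudocount of 5 FPKM, 0.0470 under quantile normalization, 0.0435 under scaling to the summed FPKM and 0.0357 without a mean-variance trend. These were the only 4 of 16 alternatives in which HDAC4 passed. Its adjusted p was 0.0813 with no filter on low values and between 0.0595 and 0.163 with a sample left out. With replicate number as a block HDAC4 did not pass either.

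HDAC5 was the class IIa gene with the highest level, listed at 60.5, 54.2 and 48.6 FPKM in shControl and at 60.6, 69.8 and 42.2 FPKM in shZnf148. The knockdown samples lay on both sides of the control range. The log2 fold change of 0.05 (SE 0.18, 95% CI -0.39 to 0.49, adjusted p = 0.862) was -0.02 without shControl replicate 3 and -0.10 without shZnf148 replicate 2. The second HDAC5 row was listed at 7.68, 7.55 and 7.82 FPKM in shControl and at 5.28, 7.23 and 5.47 FPKM in shZnf148. These groups did not overlap, although shZnf148 replicate 2 lay close to the controls, and the log2 fold change was -0.32 (SE 0.12, 95% CI -0.61 to -0.04, adjusted p = 0.111). Without shZnf148 replicate 2 it was -0.45 (adjusted p = 0.0216), the only 1 of 16 alternatives in which this row passed. Without shZnf148 replicate 1 or 3 it was -0.25 or -0.27 (adjusted p = 0.254 and 0.225).

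**Figure D2:**
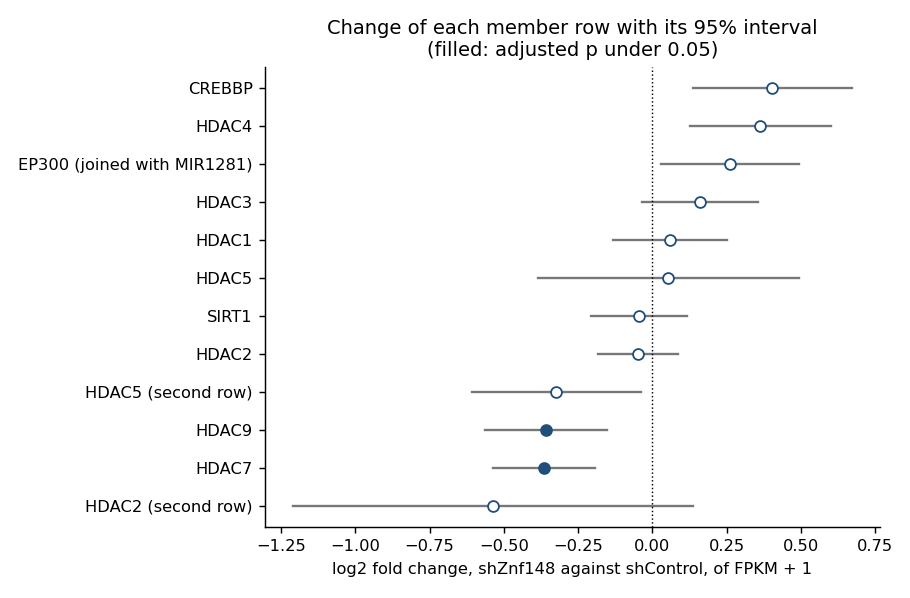
Log2 fold change of FPKM + 1, shZnf148 against shControl, for each of the 12 rows with its 95% interval, filled where the adjusted p was under 0.05. Only HDAC7 and HDAC9, both at -0.36, are filled, and CREBBP at 0.40 and HDAC4 at 0.36 are the highest.

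Ratios within a sample set HDAC4 against the class IIa genes that fell. The ratio of HDAC4 to HDAC7 was 0.124, 0.159 and 0.136 in shControl and 0.256, 0.235 and 0.282 in shZnf148. No knockdown ratio reached down to a control ratio, and the mean ratio went from 0.140 ± 0.0180 to 0.258 ± 0.0233 (log2 difference 0.89). The ratio of HDAC4 to HDAC9 was 0.106 ± 0.00915 in shControl and 0.196 ± 0.0287 in shZnf148 (log2 difference 0.87). The pairs were chosen after the values had been seen, and with HDAC4 above and HDAC7 and HDAC9 below the controls in every knockdown sample, the separation of these ratios was fixed and is given as a description without a test.

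The ratio of HDAC7 to HDAC9 was 0.763 ± 0.0330 in shControl and 0.757 ± 0.0481 in shZnf148, with overlapping ranges. Both genes had a log2 fold change of -0.36, so similar ratios follow from those values and are given as a description without a test. Of the summed FPKM of the 4 class IIa genes, HDAC5 made up 60.4 ± 1.78% in shControl and 65.5 ± 4.17% in shZnf148. HDAC4 made up 2.26 ± 0.258% and 3.48 ± 0.793%, HDAC7 16.2 ± 0.695% and 13.4 ± 1.84%, and HDAC9 21.2 ± 1.12% and 17.6 ± 1.62%.

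**Figure D3:**
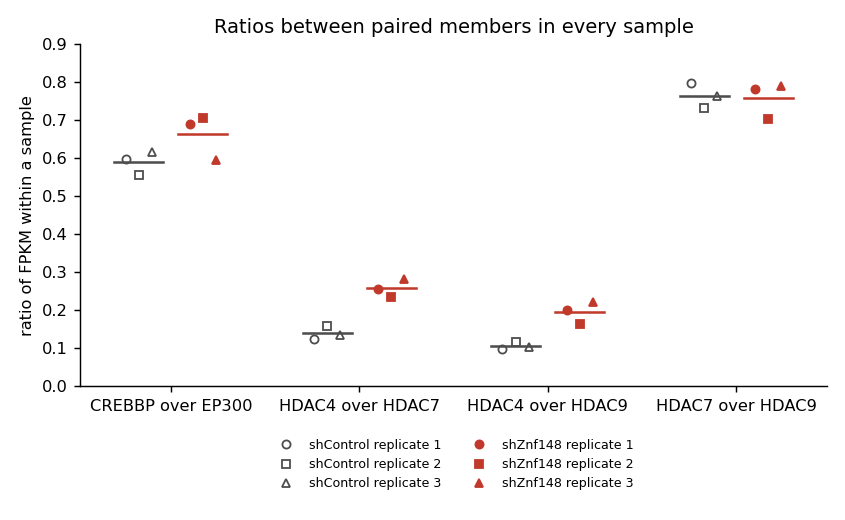
Ratio of FPKM between paired genes in every sample, with shControl in open grey and shZnf148 in filled red symbols and a line at each group mean. The ratios of HDAC4 to HDAC7 and to HDAC9 are higher in all shZnf148 samples, whereas the ranges of the other two ratios overlap.

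The promoters of HDAC7 and HDAC9 are printed because these were the genes that fell. They are the 250 bases before a RefSeq start on GRCh38.p14, with CCCTCCC on either strand in capitals.
HDAC7 promoter, GRCh38.p14 chr12:47819904-47820153, minus strand: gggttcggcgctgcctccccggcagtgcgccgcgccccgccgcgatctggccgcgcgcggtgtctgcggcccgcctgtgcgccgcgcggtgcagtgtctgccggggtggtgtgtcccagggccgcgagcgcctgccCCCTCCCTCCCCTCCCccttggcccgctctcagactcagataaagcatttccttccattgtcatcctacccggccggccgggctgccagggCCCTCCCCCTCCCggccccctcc
HDAC9 promoter, GRCh38.p14 chr7:18086575-18086824, plus strand: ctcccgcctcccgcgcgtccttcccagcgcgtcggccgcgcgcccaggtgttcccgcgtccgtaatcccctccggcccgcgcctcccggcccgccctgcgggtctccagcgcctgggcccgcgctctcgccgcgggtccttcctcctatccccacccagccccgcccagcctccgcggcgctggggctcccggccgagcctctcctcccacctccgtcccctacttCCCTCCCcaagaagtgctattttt
The HDAC7 window held 5 matches that partly overlap one another, a number reached by 110 of 35116 windows (0.313%), and its GC content was 75.6%. The HDAC9 window held 1 match, and the 4 other windows of HDAC9 held 0.

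A window was found for 9 of the 10 genes, all but HDAC5. CCCTCCC occurred in at least 1 window of 6 of these 9 genes, HDAC3, HDAC4, HDAC7, HDAC9, EP300 and CREBBP, beside 27.5% of 27305 genes. Since HDAC4 and HDAC9 have 5 windows each and CREBBP has 2, the nearer comparison is by window, where 6 of 18 (33.3%) held the word beside 24.7% of all 35116 windows. A related word, CCCGCCC or its complement, occurred in 4 of the 9 genes, HDAC1, HDAC9, CREBBP and SIRT1, beside 35.3% of genes and 31.5% of windows. A match is a description of these letters and not a measured binding site.

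SIRT1 encodes an NAD-dependent deacetylase of a separate enzyme family. It was listed at 10.7, 10.1 and 10.7 FPKM in shControl and at 10.3, 9.91 and 10.3 FPKM in shZnf148, the narrowest span in FPKM of the 10 genes. The groups overlapped, and the log2 fold change of -0.04 (SE 0.07, 95% CI -0.21 to 0.12, adjusted p = 0.675) was 0.02 under scaling to the summed FPKM.

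The rows most like HDAC7 were found by the mean absolute difference of log2(FPKM + 1) over the 6 samples, after each row's own mean was subtracted. They were the joined row of LEPR and LEPROT (0.0123), SLC44A2 (0.0190) and PCIF1 (0.0193). LEPROT encodes a small membrane protein whose gene shares its start with the leptin receptor LEPR, SLC44A2 encodes a choline transporter-like protein, and PCIF1 encodes a methyltransferase of the mRNA cap. Their log2 fold changes were -0.34, -0.36 and -0.37, close to that of HDAC7 because of the way the rows were chosen.

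Several of the genes overlap other genes on the opposite strand, and the sources used here do not say whether counting used strand. By GENCODE, exons of HDAC7 overlap SLC48A1, a heme transporter gene, and exons of HDAC5 overlap G6PC3, a glucose-6-phosphatase gene, and reads from such pairs cannot be told apart without strand. SLC48A1 was listed at 4.59, 4.62 and 4.63 FPKM in shControl and 3.44, 2.48 and 3.44 FPKM in shZnf148. Like HDAC7 it was lower in every knockdown sample (log2 fold change -0.46, adjusted p = 0.0536), and the part of one row in the other was not tested. G6PC3 had a log2 fold change of 0.20 (adjusted p = 0.348). HDAC2, HDAC3, HDAC4, HDAC7 and EP300 also overlap long noncoding RNA genes (2 each for HDAC4 and HDAC7), and HDAC1, HDAC9, CREBBP and SIRT1 overlap none.

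The 9 lists of other enzymes, complex subunits and partners held 63 genes, of which 60 were tested. Of these, 11 passed (18.3%), 3 as higher and 8 as lower, beside 13.6% of all tested rows, and the median log2 fold change was 0.02. The groups did not overlap in 34 of the 60, 19 higher and 15 lower, beside 41.0% of all tested rows. In each list the counts below stand beside 5.46% of tested rows that passed as higher and 8.13% that passed as lower, and with 2 to 12 tested genes a list gives only a description.

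Among the 4 other zinc-dependent deacetylases, HDAC8, a class I enzyme that acts on cohesin, fell from 18.4 ± 1.60 to 11.5 ± 2.31 FPKM (log2 fold change -0.65, adjusted p = 0.0326). HDAC6, HDAC10 and HDAC11 did not pass. Of the 6 other sirtuins, SIRT2, a mainly cytoplasmic tubulin deacetylase, rose from 19.8 ± 1.81 to 24.9 ± 0.488 FPKM (0.32, adjusted p = 0.0446) and 5 did not pass. Of the 12 other acetyltransferases, KAT5, the catalytic subunit of the TIP60 complex, fell from 34.1 ± 2.25 to 25.8 ± 1.29 FPKM (-0.38, adjusted p = 0.0262) and 11 did not pass.

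The NuRD, SIN3 and CoREST complexes carry HDAC1 and HDAC2, and their lists held 28 of the 60 tested genes and 6 of the 11 that passed (21.4% of the 28, beside 13.6% of all tested rows). In NuRD, 2 of 11 subunits fell and 0 rose. CHD3, one of its remodelling ATPases, was listed at 23.0, 21.2 and 23.3 FPKM in shControl and at 12.6, 10.6 and 13.4 FPKM in shZnf148. The groups were far apart (log2 fold change -0.84, SE 0.10, adjusted p = 0.0108). MTA3, a scaffold subunit, fell from 20.8 ± 1.51 to 13.5 ± 0.887 FPKM (-0.58, adjusted p = 0.0150). The alternative ATPase CHD4, whose row is joined with NOP2, had a log2 fold change of 0.21 (adjusted p = 0.0945). The groups did not overlap in 10 of the 11 NuRD genes, 5 higher and 5 lower, beside 41.0% of all tested rows. This was not particular to NuRD. The groups also did not overlap in 9 of 12 SIN3 genes (7 higher, 2 lower) and in 4 of 5 NCoR and SMRT genes. In the CoREST list they did not overlap in 2 of 5 tested genes.

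Of 12 SIN3 complex genes, 2 rose and 1 fell. SAP30 rose from 24.7 ± 0.913 to 33.6 ± 0.928 FPKM (log2 fold change 0.43, adjusted p = 0.0148) and its paralog SAP30L from 3.46 ± 0.356 to 5.15 ± 0.449 FPKM (0.47, adjusted p = 0.0374). SUDS3, another core subunit, fell from 9.54 ± 1.35 to 5.52 ± 0.700 FPKM (-0.69, adjusted p = 0.0243). In the CoREST list HMG20B, a DNA-binding subunit, fell from 80.9 ± 3.17 to 60.9 ± 3.96 FPKM (-0.41, adjusted p = 0.0209), 1 of 5 tested genes. In the NCoR and SMRT list, 1 of 5 genes passed, the exchange factor TBL1X, which fell from 15.1 ± 1.42 to 11.1 ± 0.537 FPKM (-0.41, adjusted p = 0.0324).

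MEF2 factors are the DNA-binding partners of class IIa deacetylases. MEF2D fell from 17.0 ± 0.489 to 12.1 ± 1.10 FPKM (log2 fold change -0.46, adjusted p = 0.0233), and MEF2A had a value of -0.42 that did not pass (adjusted p = 0.0579). The row of MEF2B, joined with MEF2BNB, did not pass. MEF2C was below the limit for testing, with means of 0.424 FPKM in shControl and 0.643 FPKM in shZnf148. Of the CITED proteins, which bind p300 and CBP and compete with other factors for them, CITED2 was listed at 37.2, 35.0 and 38.1 FPKM in shControl and at 60.5, 110.3 and 53.3 FPKM in shZnf148. All 3 knockdown values were above the controls, with replicate 2 far above the other two. Its log2 fold change was 0.93 (SE 0.25, adjusted p = 0.0561) and did not pass. Without shZnf148 replicate 2 it was 0.61 and passed (adjusted p = 0.0114), as it did without replicate 3 (1.13, adjusted p = 0.0497) and under scaling to the summed FPKM (1.01, adjusted p = 0.0384). Without shControl replicate 1, 2 or 3 the adjusted p of CITED2 was 0.161, 0.141 or 0.149. Without shZnf148 replicate 1 it was 0.0940, and with replicate number as a block it was 0.0823. CITED4 had a value of -0.24 (adjusted p = 0.410). CITED1 was below the limit for testing, with a shControl mean of 0.470 FPKM and 0 listed in all shZnf148 samples.

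**Figure D4:**
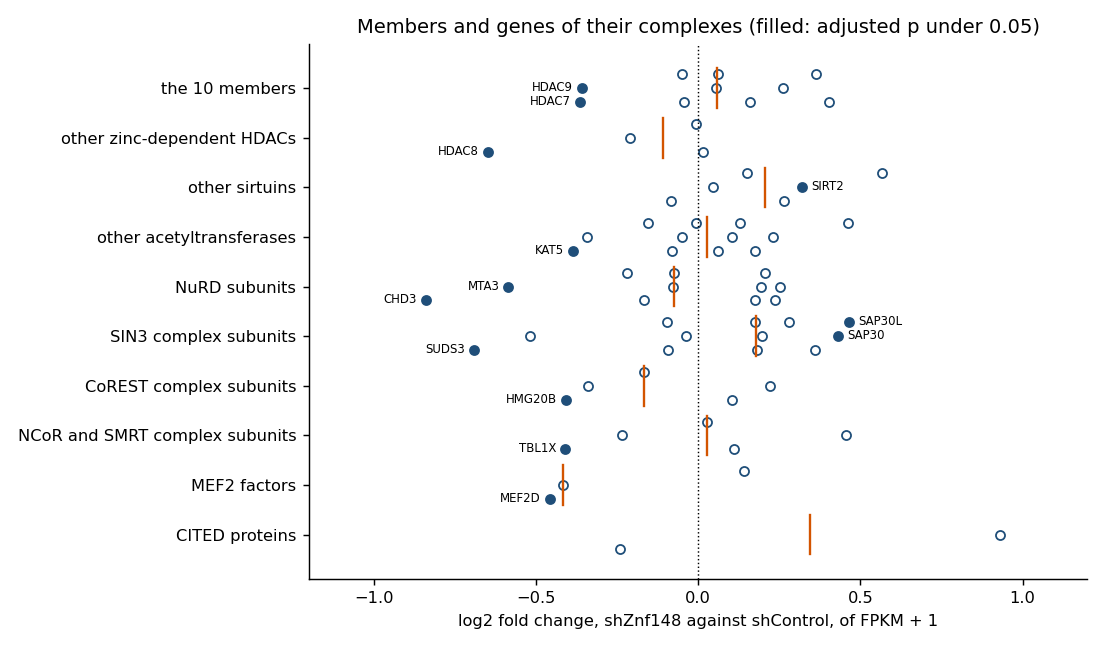
Log2 fold change of FPKM + 1, shZnf148 against shControl, of the 10 genes and the tested genes of each list, filled and named where the adjusted p was under 0.05, with an orange line at each median. The lowest is CHD3 at -0.84 and the highest is CITED2 at 0.93, which is not filled.

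Few of the 11 calls in these lists held without a shControl sample, and more held without a shZnf148 sample. Without shControl replicate 1 or 3, 0 of the 11 passed, where 29 and 22 of all tested rows passed. Only CHD3 and MTA3 passed without shControl replicate 2, where 239 of all tested rows passed. Without shZnf148 replicate 1, 2 or 3 there were 4, 8 and 7 that passed, and with no filter on low values there were 8. All 11 kept their direction in every setting in which they were tested.

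Of the genes at which ZNF148 has been described with p300 or HDAC1, CDKN1A was listed at 98.2, 92.5 and 96.7 FPKM in shControl and at 79.0, 117.4 and 80.0 FPKM in shZnf148. The knockdown samples lay on both sides of the controls, and the log2 fold change was -0.08 (SE 0.15, adjusted p = 0.741), with the opposite sign without shZnf148 replicate 1 or 3. Without shZnf148 replicate 2 it was -0.27 and passed (adjusted p = 0.0277). VIM had means of 1772 ± 67.6 and 1516 ± 11.0 FPKM. Its groups did not overlap, and the log2 fold change of -0.22 (SE 0.06) did not pass (adjusted p = 0.0563). It was -0.06 (adjusted p = 0.576) under quantile normalization and passed with a pseudocount of 0.1 FPKM (0.0454), a filter at a mean of 5 FPKM (0.0379) and robust variance moderation (0.0472).

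**Figure D5:**
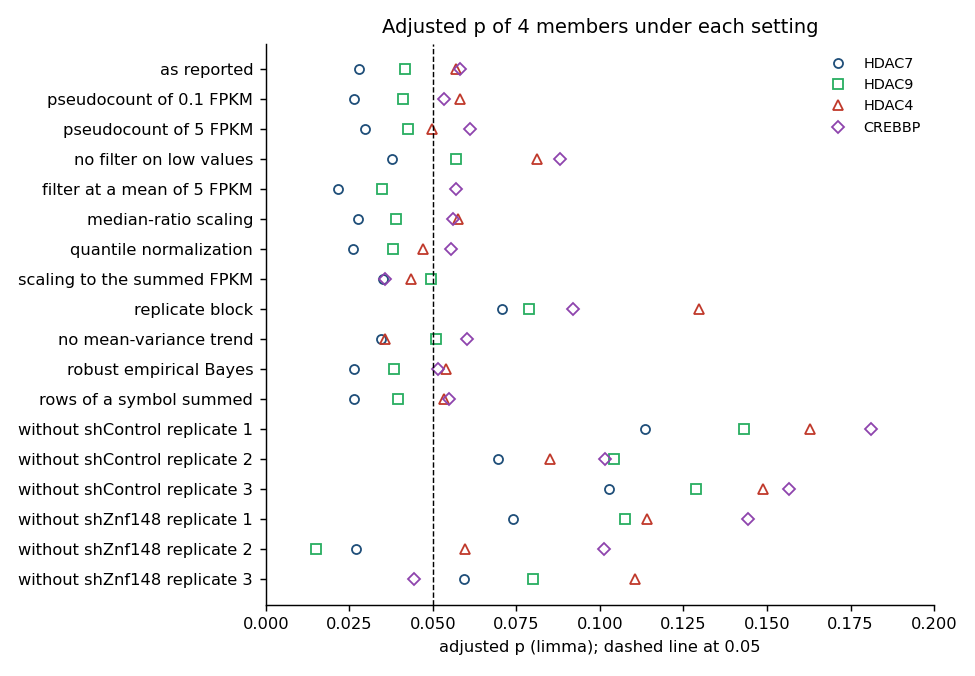
Adjusted p of HDAC7, HDAC9, HDAC4 and CREBBP under each processing setting, with a dashed line at 0.05. As reported, HDAC7 (0.0280) and HDAC9 (0.0418) lie left of the line and HDAC4 (0.0568) and CREBBP (0.0581) right of it, and all 4 lie right of it without any 1 of the shControl samples or without shZnf148 replicate 1.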

How the data were processed

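The authors deposited 1 table of normalized FPKM values for the 6 samples. The submitters' processing notes name bcl2fastq 2.17.1.14, TopHat2 2.0.14, Cufflinks 2.2.1 and Cuffnorm 2.2.1 with the builds hg18 and hg19, whereas the methods of the study name Salmon and the build GRCh38. Which of them gave the table is not stated, and counts and absolute depth are unknown. No coordinates are in the table. All those printed are from RefSeq or GENCODE on GRCh38.

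The 11777 rows averaging 1 FPKM or more were tested as log2(FPKM + 1), a scale that understates the change of low genes, with limma 3.58.1 in R 4.3.3 (moderated test with mean-variance trend, condition as the only term, Benjamini-Hochberg adjustment over all tested rows). A row passed at an adjusted p under 0.05. Single ratios were compared by exact two-sided permutation in Python 3.11.15 with scipy 1.17.1. Of these steps, the limma fit was tested on simulated data.

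The genes and lists were chosen with earlier results of these data known. By rule the text names ZNF148, the 10 genes, the passing genes of each list (the 2 with the greatest change where none passed), CITED2, CDKN1A, VIM and the 3 rows most like the passing gene with the smallest p. Markers, genes of overlapping position and other genes that did not pass were named after their values were seen. Alternatives covered the pseudocount, filter, scaling, variance model, replicate block, summed rows and each left-out sample.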

Additional observations from a re-analysis of the deposited data

How the results depend on the processing

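Of all tested rows, 1600 passed, and between 22 and 1720 passed when 1 sample was left out (22 without shControl replicate 3, 29 without shControl replicate 1). Scaling to the summed FPKM turned the split of passing rows from 643 higher and 957 lower (40.2% higher) to 1200 higher and 683 lower (63.7% higher), with the median of all rows at 0.07. Among the 10 genes, 0 passed as higher, against 1 with a pseudocount of 5 FPKM, 1 under quantile normalization, 1 without a mean-variance trend (HDAC4 in each) and 2 under scaling to the summed FPKM (CREBBP and HDAC4), and 0 to 1 with a sample left out. As lower, 2 passed, against 1 with no filter (HDAC9 at an adjusted p of 0.0569), 1 without a mean-variance trend (HDAC9 at 0.0508) and 0 to 2 with a sample left out. The ZNF148 fold change ranged from -1.74 to -1.45 with a sample left out, and missed the threshold without shControl replicate 1 (-1.69) or 3 (-1.61).

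Signs that turned were those of HDAC2 (0.017 under quantile normalization, 0.022 under summed scaling), SIRT1 (0.021 under summed scaling), HDAC1 (-0.0076 to 0.099 with a sample left out, the lowest without shZnf148 replicate 2), HDAC5 (-0.098 without shZnf148 replicate 2 to 0.26, and -0.023 without shControl replicate 3) and CDKN1A (-0.27 to 0.017, above 0 without shZnf148 replicate 1 or 3). The cause was not tested. Deviations of same-numbered samples correlated at 0.00104, -0.0881 and 0.0304, all under 0.1, so the numbers were not taken to pair the samples, although the ERBB2 row was far higher in replicate 2 of both groups than in the other samples. With replicate number as a block, 401 rows passed, 0 of the 10 genes passed as lower and 4 of the 11 passing list genes passed. Depth in reads is unknown, and with it the counting error of low values.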
